A study of Mus musculus with 83 samples.

Results

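The comparison described here set 3 small RNA libraries of mouse embryonic stem cells (ESCs) sampled on day 6 after induced deletion of *Dnmt1* against 3 control libraries of the same day. These 6 of the 83 libraries of the series were taken by their titles. The titles carry the day, a replicate number from 1 to 3 and the words DNMT1KO or control, and no R1 suffix. They also share the label E14, which they do not explain, and they name no strain. The genotype tags are Dnmt1 KO and Wildtype. In the study the ESCs carried a conditional *Dnmt1* allele that Cre recombinase removes after induction with tamoxifen (4OHT), and they grew in serum with LIF, with or without a layer of feeder cells, which the labels of these libraries do not specify. The titles and genotype tags do not say whether the control cultures received 4OHT. For a related line the study calls cells with the floxed alleles WT when they were not induced. The part of 4OHT or Cre itself in the differences below was not tested. Nothing in the labels says that the 3 libraries of a group came from separate cultures. The limma p-values and SE rest on the spread between libraries of a group, which may be technical. That spread was pooled over all 36 time-course libraries without the R1 suffix.

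DNMT1 is the maintenance methyltransferase that copies CpG methylation onto newly made DNA strands, so that dividing cells without it lose methylation passively. Imprinted clusters and some germline genes are held silent by such methylation. MicroRNAs (miRNAs) are short RNAs cut by DROSHA and DICER from hairpins, loaded into Argonaute proteins and guided to messages mainly through their seed, bases 2 to 8 of the mature strand. In ESCs the miR-290 to miR-295, miR-302 and miR-17-92 clusters are characteristic, and several of their members share or nearly share a seed.

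The sequences below are those the day 6 results turn on, from RefSeq and printed 5′ to 3′ with the seed in capitals. RefSeq held a mature strand lying within the NCBIM37 interval of 225 of the 287 miRNA features tested. A feature counts the reads of a whole hairpin, so reads of its 5p and 3p strands cannot be separated. Seed AAAGUGC is shared by miRNAs of the miR-17-92, miR-106a-363 and miR-106b-25 clusters, which fell and of which 4 are shown.
mmu-miR-20b-5p: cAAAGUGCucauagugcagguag
mmu-miR-106a-5p: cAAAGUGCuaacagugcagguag
mmu-miR-17-5p: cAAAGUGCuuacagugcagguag
mmu-miR-93-5p: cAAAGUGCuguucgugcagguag
Seed AAGUGCU is shared by the miR-302 and miR-290 clusters, of which the miR-302 members fell.
mmu-miR-302b-3p: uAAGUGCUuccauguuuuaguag
mmu-miR-302d-3p: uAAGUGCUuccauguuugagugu
mmu-miR-294-3p: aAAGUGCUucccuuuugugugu
mmu-miR-295-3p: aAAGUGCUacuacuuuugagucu
Seed AUUGCAC is carried by members of several of the clusters that fell.
mmu-miR-363-3p: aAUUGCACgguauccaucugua
mmu-miR-367-3p: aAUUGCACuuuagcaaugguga
mmu-miR-92a-3p: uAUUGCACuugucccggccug
The miRNAs that rose are represented by 4 strands of the imprinted cluster on chromosome 12 and 3 strands of an X-linked cluster.
mmu-miR-127-3p: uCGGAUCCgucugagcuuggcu
mmu-miR-541-5p: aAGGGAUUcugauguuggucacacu
mmu-miR-758-3p: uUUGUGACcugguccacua
mmu-miR-341-3p: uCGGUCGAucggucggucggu
mmu-miR-871-3p: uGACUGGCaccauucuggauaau
mmu-miR-470-5p: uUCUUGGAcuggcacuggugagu
mmu-miR-881-3p: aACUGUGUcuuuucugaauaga

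Many small RNA features changed, and miRNAs moved in both directions. Day 6 features called here are those with a Benjamini-Hochberg adjusted p under 0.05 by limma. Of 2582 annotated features with at least 10 RPM (reads scaled to a common library total) in 3 or more of the 36 time-course libraries, 595 were called, which is 23% of those tested. In Dnmt1 KO 354 were higher (13.7%) and 241 lower (9.33%). Of 287 miRNA features, 165 passed (57.5%), 96 of them higher (33.4%) and 69 lower (24%). The groups did not overlap in 576 of the 595, against 44.9% of all features tested. Calls and overlap come from the same libraries, so this is no separate support for the calls. The split by direction rested on the scaling between libraries and on single libraries. Calls were 438 higher and 157 lower with library totals alone, and 282 higher and 362 lower with median-ratio factors. Without Dnmt1 KO library 1, 2 or 3 or control library 2, the calls were 235, 241, 249 and 251 higher with 280, 243, 316 and 250 lower. The median log2 fold change of all features was 0.14, with 0.23 under library totals and 0.05 under median-ratio factors, and is the level against which small changes below are to be read. Of the called features, 365 overlap another feature and so share reads with it.

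**Figure D1:**
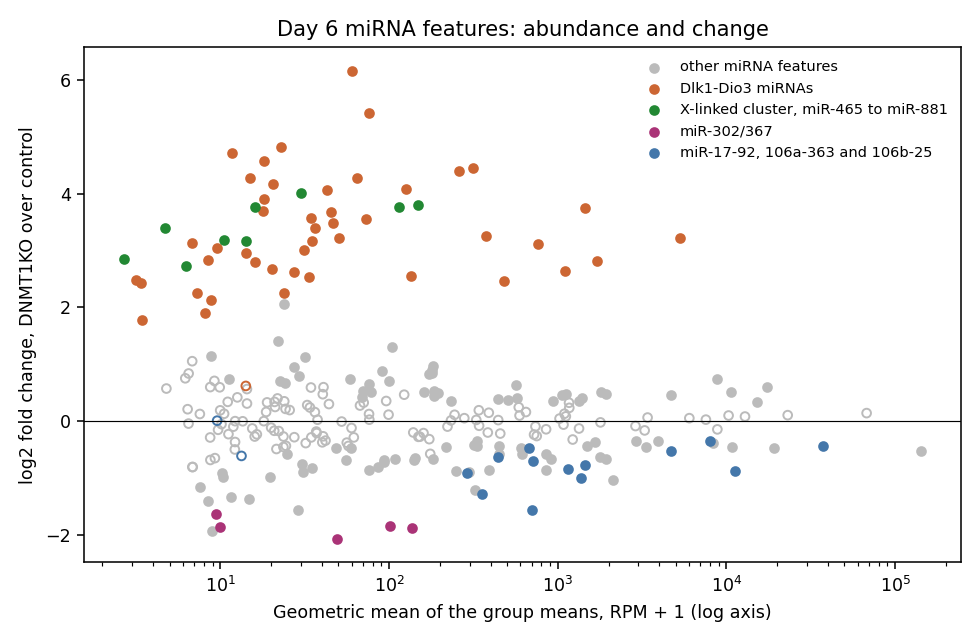
Each point is 1 of 287 miRNA features on day 6, with its abundance in RPM on a log axis and its log2 fold change of Dnmt1 KO over control; filled points had an adjusted p under 0.05. The highest points belong to the Dlk1-Dio3 and X-linked miRNAs, with fold changes up to 6.16, though *Mir1247* of the domain lies at 0.62 and *Mir181a-2*, outside both groups, at 2.06. A miR-302 miRNA stands lowest, at −2.07.

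Library depth was 3277028, 2422999 and 1764946 reads in control and lay between 2932546 and 3163345 reads in Dnmt1 KO, so that 3 reads were worth 0.915 to 1.70 RPM. The small RNA reads over the *Dnmt1* gene itself were 30.5, 23.1 and 35.1 RPM in control against 48.0, 44.6 and 41.6 RPM in Dnmt1 KO (log2 fold change 0.50, adjusted p = 0.0617). Such fragments do not measure the message, and the value checks nothing about the deletion. The ESC markers held 114800, 114697 and 111105 RPM in control against 134252, 130508 and 139222 RPM in Dnmt1 KO, nearly all from the miR-290 to miR-295 cluster. By feature the list went both ways, with 2 of 12 higher and 5 lower, all 5 of the miR-302 cluster, and a median log2 fold change of −0.013. Fibroblast markers, which feeder cells would carry, summed to 33285, 33675 and 32316 RPM in control against 52645, 53464 and 55177 RPM in Dnmt1 KO, and 7 of their 11 tested features rose. *Mir199a-1* was listed at 0 in all 6 libraries, while *Mir199a-2*, which shares 20 bases with 2 other miRNA features, had 9.46, 11.97 and 7.37 RPM against 13.0, 16.8 and 12.3 RPM. Blood markers summed to 1759.5, 1600.1 and 1882 RPM in control against 2338, 2738 and 2731 RPM in Dnmt1 KO, with 2 of 4 tested features higher and *Mir144*, *Mir223* and *Mir451* at 4.13 RPM or less in every library. Of the neural, muscle and endoderm markers, 3 of 10, 1 of 8 and 3 of 9 features were abundant enough to be tested, with the muscle *Mir206*, *Mir133b* and *Mir1a-1* and the liver *Mir122a* listed at 0 throughout. The muscle markers together summed to 10.1, 14.9 and 15.9 RPM in control against 6.00, 9.48 and 6.48 RPM in Dnmt1 KO. The mitochondrial genes *mt-Co2*, *mt-Co3*, *mt-Atp6* and *mt-Atp8*, which every cell uses, were listed at 0 as well, so a listed 0 does not show that a feature or a cell type is absent. In bulk libraries more cells of a type and more RNA per cell cannot be told apart, and the part of such cells in the results below was not tested.

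The imprinted Dlk1-Dio3 domain of chromosome 12 held the features with the smallest p-values. Its maternal chromosome expresses the long RNAs *Meg3*, *Rian* and *Mirg* with many miRNAs and C/D box small nucleolar RNAs (snoRNAs), and its paternal chromosome expresses *Dlk1*, *Rtl1* and *Dio3*. Of 57 miRNA features annotated there, 46 were tested, 6 had no read in any day 6 library, and 45 rose in Dnmt1 KO, with none lower. Their median log2 fold change was 3.18, against 0.14 for all features. Summed over the domain, these miRNAs held 4276, 4299.6 and 3754 RPM in control against 43722, 42932 and 39061 RPM in Dnmt1 KO. The lowest Dnmt1 KO library was far above every control library. Members low in control, such as *Mir543* at a mean of 2.39 RPM, can pass the abundance filter through Dnmt1 KO libraries alone. The filter thus favours members that rose. As a share of all miRNA reads the tested members went from 0.759% ± 0.0487 to 7.61% ± 0.553 (SD, n = 3 each).

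Along the domain the fold changes differed between neighbouring miRNAs. *Mir341*, hosted by *Rian* (NCBIM37 chr12:110849710-110849805), had 25.9, 29.7 and 30.6 RPM in control against 521, 577 and 515 RPM in Dnmt1 KO, a log2 fold change of 4.08 ± 0.13 (SE, adjusted p = 6.89e-25). *Mir541* in *Mirg* had 429, 381 and 341 RPM against 5824, 5404 and 5327 RPM (3.74 ± 0.13, adjusted p = 1.08e-24). *Mir758* was low in control, with 5.80, 6.19 and 5.67 RPM against 528, 537 and 504 RPM (6.16 ± 0.29). It shares 20 bases with another miRNA feature, so its reads are not fully assigned. *Mir381* had 59.5, 81.7 and 51.6 RPM against 1506, 1544 and 1467 RPM (4.45 ± 0.16), and *Mir323* had 3.66, 2.48 and 3.40 RPM against 119, 136 and 115 RPM (4.82 ± 0.23). *Mir127*, which lies antisense to the retrotransposon-derived gene *Rtl1* and is complementary to its message, was the most abundant member, with 1788, 1781 and 1495 RPM against 18282, 17124 and 15017 RPM (3.21 ± 0.18, adjusted p = 1.13e-17). For all 6 the Dnmt1 KO libraries lay close together and far above the control libraries.

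The stretches of the domain can be set side by side by distance from the start of *Meg3*. Between *Meg3* and *Rtl1*, 6 miRNAs had fold changes from 1.78 (*Mir770*) to 5.41 (*Mir540*) on the log2 scale. *Mir770*, inside *Meg3*, was at or under 3 reads in every control library, and its mean in Dnmt1 KO, 5.50 RPM, was at least 4.28-fold higher, taking the control group at the mean worth of 3 reads per library. *Mir412* was at that level in control too and at least 5.40-fold higher. The 5 miRNAs antisense to *Rtl1* were more alike, between 2.46 for *Mir136* and 3.21 for *Mir127*, with *Mir431* (2.56), *Mir433* (2.54) and *Mir434* (2.64) between them. *Mir370* within *Rian* was at 4.58. The 33 members beyond *Rian* had a median of 3.21, a range from 0.62 to 6.16, and a mean summed level of 1665 RPM in control against 19043 RPM in Dnmt1 KO. The member that did not pass was *Mir1247*, which lies 737 kb from the start of *Meg3*, with 10.7, 8.25 and 11.33 RPM against 17.0, 15.8 and 18.4 RPM (0.62 ± 0.25, adjusted p = 0.0706), groups that did not overlap.

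**Figure D2:**
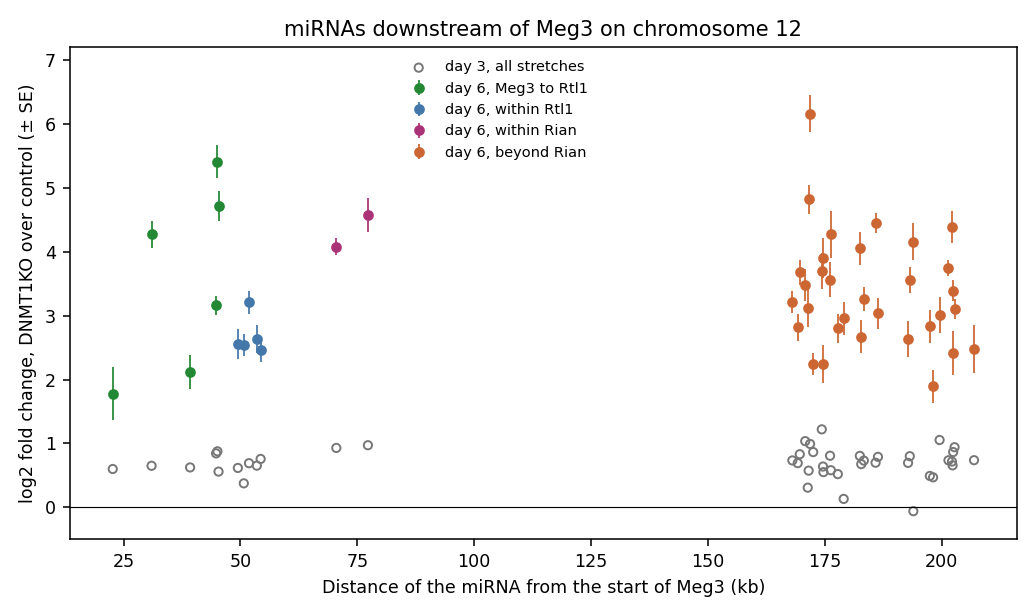
Log2 fold change (± SE) of 45 miRNAs on day 6 (filled) and the same miRNAs on day 3 (open, without error bars) by distance from the start of *Meg3* in kb. The 5 miRNAs within *Rtl1* lie between 2.46 and 3.21 on day 6, members of the other stretches reach 6.16, and the day 3 median of the domain is 0.70.

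The features of the long RNAs of the domain rose too, but all 4 tested overlap small RNA features and share their reads, so they give no separate reading of the long RNAs. *Meg3*, which contains *Mir770*, gave few fragments, 1.53, 1.65 and 2.27 RPM against 12.3, 14.5 and 11.9 RPM (2.24 ± 0.33), of which *Mir770* held 0.610, 1.24 and 0.567 RPM against 3.67, 6.01 and 6.82 RPM. The *Rian* feature had 148, 168 and 154 RPM against 1122, 1342 and 1141 RPM (2.83 ± 0.12) and *Mirg* had 755, 735 and 643 RPM against 9642, 9434 and 8884 RPM (3.61 ± 0.12), the latter nearly the summed reads of its miRNAs. The *Rtl1* feature had 2477, 2495 and 2152 RPM against 22512, 21839 and 19389.6 RPM, nearly the summed reads of its 5 antisense miRNAs, and says nothing of its message. The snoRNA series between *Dlk1* and *Dio3*, of which 6 tested members lie within the annotated *Rian*, had 13 members tested of 23 annotated. All 13 rose, by 1.26 to 3.59 with a median of 2.39, from a sum of 125 ± 1.04 to 718 ± 119 RPM (SD, n = 3). Copies within that series share sequence, so single copies are uncertain. Some were at or under 3 reads in every control library, and such copies can pass the abundance filter through Dnmt1 KO libraries alone.

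An X-linked cluster of rodent miRNAs known for expression in the testis, from *Mir465* to *Mir881*, rose from low levels. Of 18 features, 9 were tested and all 9 rose, with a median log2 fold change of 3.40. *Mir741*, for instance, had a mean of 0.443 RPM in control, and such members can pass the abundance filter through Dnmt1 KO libraries alone. The count that rose therefore leans on the filter. *Mir871* (NCBIM37 chrX:64063603-64063679) had 40.0, 42.1 and 31.2 RPM in control against 593, 487 and 642 RPM in Dnmt1 KO (3.79 ± 0.23, adjusted p = 5.91e-17). *Mir470* had 30.5, 26.4 and 29.5 RPM against 497, 395 and 409.9 RPM (3.76 ± 0.24), and *Mir881* had 7.93, 7.84 and 3.40 RPM against 117, 117 and 126 RPM (4.01 ± 0.28). For all 3 every Dnmt1 KO library was above every control library. *Mir471* had no read in the control libraries, and its 6.26 RPM in Dnmt1 KO was at least 4.87-fold higher than the worth of 3 reads. *Mir741*, with at most 3 reads in a control library, was at least 11.04-fold higher. The remaining tested members, *Mir878* (3.77), *Mir743b* (3.18), *Mir463* (3.16) and *Mir465* (2.73), also had no overlap between groups. *Mir465* shares 20 bases with 4 other miRNA features. The sum of the cluster went from 85.6 ± 7.10 to 1319.7 ± 119 RPM.

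Other imprinted loci moved by less and not all upwards. Of 35 features on the list, 12 were tested, 9 rose and 1 fell. *Peg10*, a retrotransposon-derived gene needed in the placenta, had 16.8, 12.4 and 13.0 RPM in control against 52.995, 49.9 and 45.4 RPM in Dnmt1 KO (1.65 ± 0.18, adjusted p = 6.59e-10). *H19*, a maternally expressed long RNA, had 0.915, 2.48 and 1.13 RPM against 6.00, 6.95 and 5.80 RPM (1.51 ± 0.39, adjusted p = 0.00332). Its control values lay near the worth of 3 reads, 0.915 to 1.70 RPM in the control libraries, so the size of the change is uncertain. The paternally expressed zinc finger gene *Peg3* was at 1.26 and *Igf2r*, the receptor that clears IGF2, at 0.73. *Mir298* (0.46) and *Mir296* (0.36), miRNAs near *Gnas*, and *Mir335* (0.36), hosted by *Mest*, rose as well, and the *Mest* feature held little beyond the reads of *Mir335*. *Grb10*, which encodes an adaptor that restrains growth signalling, fell, with 9.76, 9.08 and 11.33 RPM against 5.67, 5.06 and 3.41 RPM (−1.07 ± 0.25, adjusted p = 0.00134). The *Sfmbt2* gene, host of a large imprinted miRNA block on chromosome 2, had 493, 426 and 461 RPM against 682, 611 and 642 RPM (0.38 ± 0.09), nearly the summed reads of its miRNAs, so the feature gives no separate reading of the gene. Of its 119 miRNA features 88 had no read, 8 were tested and 2 rose, with a median of 0.32. With median-ratio factors none of the 8 passed, and their copies share sequence.

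**Figure D3:**
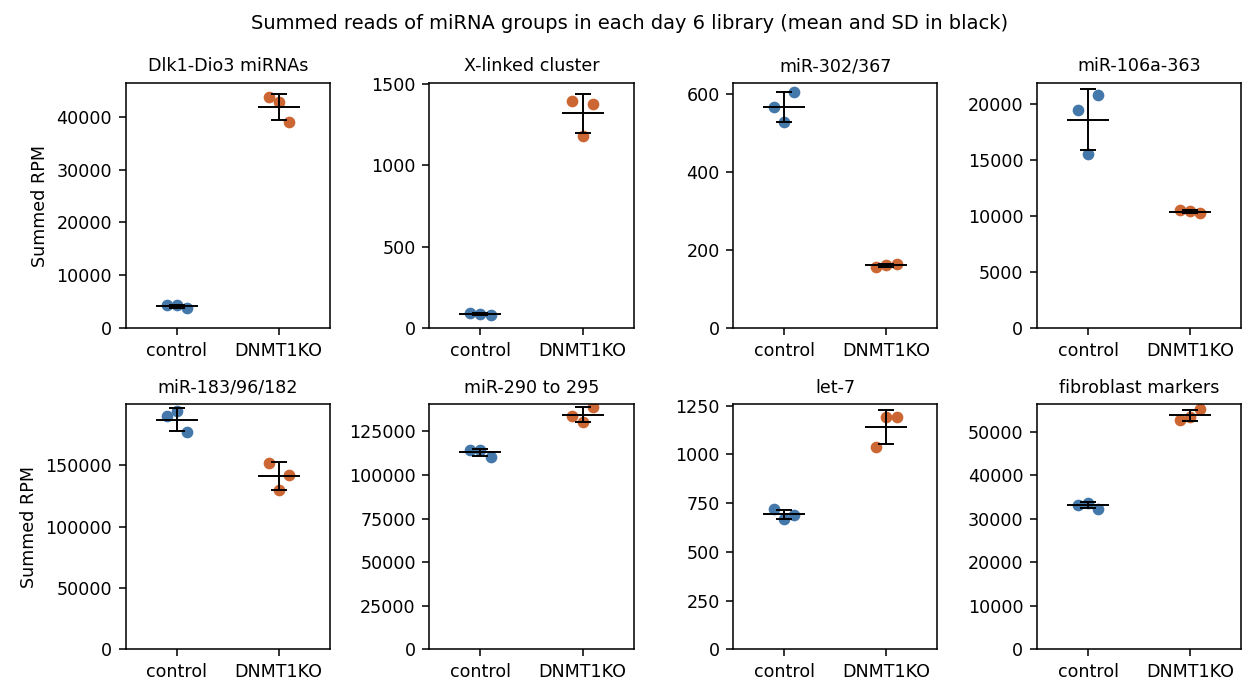
Summed RPM of 8 groups in each day 6 library, with 3 control and 3 Dnmt1 KO points and the mean ± SD in black; each vertical axis starts at 0. The Dlk1-Dio3 sum goes from 4110 to 41905 RPM on average while the miR-302 sum goes from 566 to 160 RPM.

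The miR-302 cluster, which includes *Mir367* and marks ESCs and their early descendants, fell as a whole. All 5 of its miRNAs passed, with a median log2 fold change of −1.86. *Mir302b* (NCBIM37 chr3:127248146-127248219) had 94.0, 90.8 and 104 RPM in control against 20.7, 27.5 and 23.9 RPM in Dnmt1 KO (−2.07 ± 0.15, adjusted p = 2.93e-14). *Mir302d* had 239, 234 and 283 RPM against 77.3, 68.0 and 73.3 RPM (−1.88 ± 0.16), and *Mir302a* had 200.5, 171 and 186 RPM against 50.0, 57.2 and 56.6 RPM (−1.85 ± 0.16). In each of these the highest Dnmt1 KO library was below the lowest control library. *Mir302b* and *Mir302a* each share 20 bases with another miRNA feature. *Mir302c* (−1.86) and *Mir367* (−1.64) were lower in abundance. The cluster lies on the opposite strand within *Larp7*, the gene of a 7SK-binding protein, whose feature had 567, 527 and 606 RPM against 156, 165 and 165 RPM (−1.90). These values are nearly the cluster's sums in the same libraries, so the feature gives no separate reading of *Larp7*.

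The miR-290 to miR-295 cluster, the leading miRNA locus of ESCs, shares a seed with miR-302, and none of its members fell. Its summed level was 114233, 114170 and 110501 RPM in control against 134096, 130346 and 139059 RPM in Dnmt1 KO. Of 7 members 2 rose, *Mir290* (466, 504 and 472 RPM against 722, 631 and 702 RPM, 0.40 ± 0.09) and *Mir293* (12486, 13081 and 13728 RPM against 17591, 17274 and 18112 RPM, 0.33 ± 0.11, adjusted p = 0.0226). *Mir295*, with 64381, 62986 and 59378 RPM against 73026, 71604 and 76674 RPM, had no overlap between groups in RPM and a log2 fold change of 0.14 ± 0.08 after TMM scaling (adjusted p = 0.191). *Mir292* was at 0.10 (adjusted p = 0.494), and the sign of both depended on the features used for scaling. Of the tested features with a matched RefSeq strand, 5 carried seed AAGUGCU, 2 of them of the miR-302 cluster. The summed reads of the 5 were 75407 ± 2585 RPM in control against 88528 ± 2954 RPM in Dnmt1 KO (SD, n = 3).

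The miR-17 families, known for promoting cell cycle entry and survival, were lower across 3 clusters. In the X-linked miR-106a-363 cluster 5 of 6 members fell, with a median of −0.96. *Mir20b* (NCBIM37 chrX:50095290-50095369) had 1135, 1130 and 1202 RPM in control against 442, 388 and 435 RPM in Dnmt1 KO (−1.56 ± 0.10, adjusted p = 1.88e-16). *Mir106a* had 521, 506 and 580.2 RPM against 256, 237 and 214.8 RPM (−1.29 ± 0.12), and *Mir363* had 1860.2, 1686 and 2065 RPM against 1028, 982 and 998 RPM (−0.9998 ± 0.10). In none of these did the groups overlap. *Mir18b* (−0.91) and *Mir92-2* (−0.87) fell too, and *Mir19b-2* was at −0.61 with an adjusted p of 0.0649. *Mir92-2* shares 20 bases with another miRNA feature, as does *Mir92-1*, so the reads of these copies cannot be fully assigned.

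In the miR-17-92 cluster 6 of 7 features fell, the host *Mir17hg* among them, whose reads are nearly all those of the 6 miRNAs inside it. *Mir20a* had 1343, 1576 and 1500.3 RPM against 902, 845 and 909 RPM (−0.84 ± 0.12), *Mir17* was at −0.78, *Mir19a* at −0.69 and *Mir18* at −0.64. *Mir92-1*, its most abundant member, had 42571, 38949 and 45019 RPM against 34048, 32306 and 33804 RPM (−0.44 ± 0.09), and the groups did not overlap. In the miR-106b-25 cluster within *Mcm7*, a gene of the replicative helicase, all 3 members fell, with *Mir93* at −0.54, *Mir106b* at −0.47 and *Mir25* at −0.34. The *Mcm7* feature had 15081, 14378 and 14983 RPM against 12572, 11279 and 12007 RPM, nearly the reads of its miRNAs, so it gives no separate reading of the gene.

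Seeds could be read only for features with a matched RefSeq strand, so the counts and sums by seed cover those alone. Grouped by seed instead of locus, all 6 tested features with seed AAAGUGC fell, and their summed level went from 11187 ± 383 to 7319 ± 357 RPM, a ratio of 0.654. For seed AUUGCAC 5 of 7 features fell, with sums of 68402 ± 5915 and 51629.6 ± 1368 RPM (ratio 0.755). For seed AGUGCAA, that of miR-130 and miR-301, 3 of 3 features fell, with sums of 8225 ± 287 and 5686 ± 193 RPM (ratio 0.691). The groups of each of these sums did not overlap. *Mir130b*, in the host *2610318N02Rik*, had 2963, 2766 and 3071 RPM against 1695, 1414 and 1533 RPM (−1.03 ± 0.10, adjusted p = 1.73e-11). Its neighbour *Mir301b* was at −1.21, *Mir301* at −0.64 and *Mir130a* at −0.35, and all passed.

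The miR-183 cluster, which held the most abundant miRNA of these libraries, fell moderately. *Mir182* had 167535, 170192 and 156885 RPM in control against 132306, 113330 and 125642 RPM in Dnmt1 KO (−0.52 ± 0.10, adjusted p = 5.16e-05). Its share of miRNA reads went from 30.4% to 22.5% on average. *Mir183* (−0.48) and *Mir96* (−0.48) fell with it, though with library totals 2 of the 3 passed. *Mir148a* had 12077, 12608 and 11798 RPM against 10062, 9059 and 9557 RPM (−0.45 ± 0.11), with no overlap. Of the other abundant miRNAs, *CT010508.1* was at 0.08 (adjusted p = 0.659). The called miRNA features that fell changed by a summed -80954 RPM and those that rose by 69704 RPM, and the 46 tested Dlk1-Dio3 miRNAs together by 37791 RPM. The share of all reads in miRNA features was 54.2% ± 0.696 in control and 55.1% ± 1.96 in Dnmt1 KO (SD, n = 3), and the groups overlapped.

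Members of the epithelial miR-200 family were lower on day 6 in 3 of 5 cases, *Mir200c* (−0.69), *Mir141* (−0.58) and *Mir200b* (−0.36). *Mir429* was at −0.22 and *Mir200a* at −0.20 with their groups overlapping, and 1 of the 5 passed with library totals. Relatives of miR-15/16, known for slowing the cell cycle, divided. *Mir195* fell, with 179.7, 163 and 168 RPM against 116, 112 and 113 RPM (−0.69 ± 0.16), and so did *Mir497* beside it (−0.67) and *Mir15b* (−0.43). *Mir322*, an X-linked member, rose, with 130.3, 120.1 and 125 RPM against 253, 258 and 247 RPM (0.90 ± 0.12, adjusted p = 7.61e-08). In the miR-34 and miR-449 family *Mir34c* rose (0.40) and *Mir449c* fell (−0.99). *Mir320*, a miRNA made without DROSHA, fell (−0.44), the member of 6 tested on the non-canonical list that passed. That share is below the 23% of all features that passed. Among the features with the smallest p-values that fell were *Mir582* in *Pde4d* (−0.90 ± 0.12), the snoRNA *CT010429.2* in *Wdr43* (−0.82 ± 0.10) and the gene body *Prosapip1*, with 342, 266 and 239 RPM against 144.7, 104 and 104 RPM (−1.37 ± 0.17).

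Of the let-7 family, known for its rise during differentiation, most tested features were higher. Of 6 let-7 features tested 5 rose, with a median of 0.64, and with median-ratio factors 2 did. The miRNA family lists were matched by symbol, so members annotated under clone names would not be in them. *Mirlet7i* had 450.1, 418 and 433 RPM in control against 661, 768 and 753 RPM in Dnmt1 KO (0.64 ± 0.20, adjusted p = 0.019). *Mirlet7f-2* was at 0.80, *Mir98* at 0.65, and *Mirlet7g* at 0.46 with an adjusted p of 0.287. The summed let-7 level went from 693 ± 23.9 to 1141 ± 87.7 RPM (SD, n = 3). *Mir99b* (0.48) and *Mir125a* (0.47), neighbours on chromosome 17, rose, 2 of 4 features tested of the miR-99 and miR-125 families. Of 5 features of the miR-29 and miR-148 families, *Mir29a*, which targets collagen messages, rose (0.39) and *Mir148a* fell, with a median of −0.15.

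Of 11 fibroblast marker features tested 7 rose, all 11 had a positive fold change, the median was 0.49, and in 10 the groups did not overlap. Of all 2582 features tested, 1585 had a positive fold change, and 32.1% had Dnmt1 KO above control without overlap. *Mir143* had 6609, 7005 and 6027 RPM against 11036, 11749.6 and 12289.7 RPM (0.73 ± 0.10, adjusted p = 4.34e-07). *Mir21* in *Vmp1* had 8516, 8619.9 and 8459 RPM against 12489, 13466 and 13532 RPM (0.52 ± 0.11), and *Mir22* had 13976, 13267 and 13898 RPM against 22910, 21528 and 22463 RPM (0.60 ± 0.14). In each the lowest Dnmt1 KO library was above the highest control library. *Mir214* (0.87), *Mir10a* (0.53), *Mir10b* (0.46) and *Mir145* (0.43) passed as well. Of the blood markers *Mir142* (0.51) and *Mir150* (0.49) rose, and of the endoderm markers *Mir215* rose, with 5.19, 4.54 and 4.53 RPM against 11.7, 10.7 and 15.3 RPM (1.14). The other tested members of both lists had negative fold changes and did not pass. The lowest was −0.12 for blood and −0.27 for endoderm. Several of these miRNAs are also made outside the cell type they mark, and the part of feeder or differentiated cells in these differences was not tested.

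By annotated class, more snoRNA and small nuclear RNA (snRNA) features fell than rose, and more gene bodies rose than fell, in numbers that moved with the scaling; the classes were not tested against each other. Of 234 snoRNA features 64 fell, and the 13 that rose are those of the Dlk1-Dio3 domain. The median of all 234 was −0.24, with 32 lower under library totals and 105 lower under median-ratio factors. Of 18 snRNA features 8 fell, with a median of −0.44, and 5 and 13 fell under those scalings. *U7*, of histone message processing, had 478, 496 and 594 RPM against 269, 365 and 343 RPM (−0.79 ± 0.16), and *U4atac* (−0.69) and *U11* (−0.56) belong to the minor spliceosome. As a share of all reads, snoRNA features held 19.8% ± 0.530 in control and 18.3% ± 1.02 in Dnmt1 KO, and snRNA features 0.532% ± 0.0574 and 0.393% ± 0.0388 (SD, n = 3). The groups did not overlap in either class. The exact two-sided permutation p of each was 0.1, the smallest that 3 against 3 libraries allow, and 0.2 after adjustment over the 8 classes compared.

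**Figure D4:**
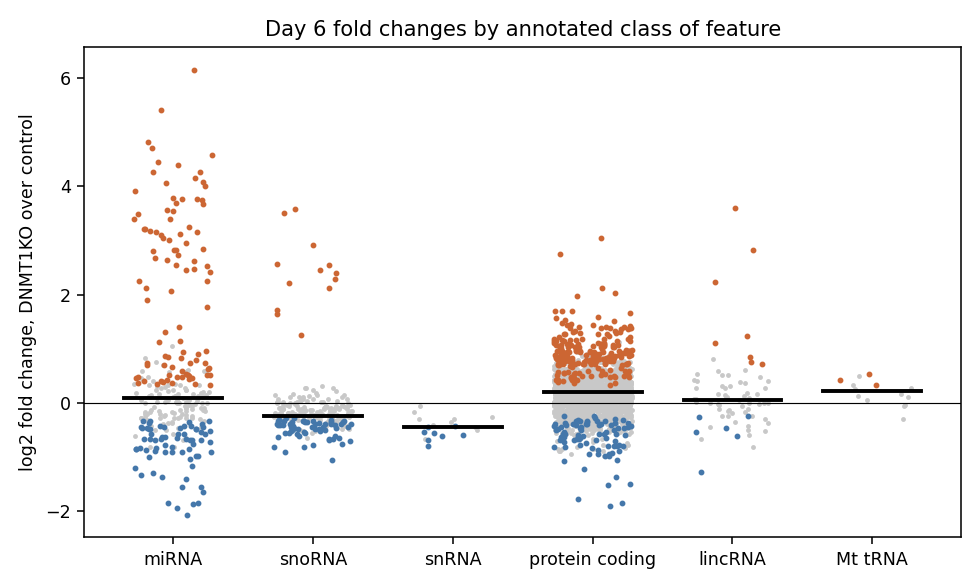
Log2 fold change of every tested feature by annotated class, with called features in orange (higher) or blue (lower), others in grey and the class median as a black bar. The snRNA median lies at −0.44 and the snoRNA median at −0.24, while the higher snoRNA points are the 13 of the Dlk1-Dio3 domain.

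Fragments of protein-coding gene bodies that hold no annotated small RNA rose in 170 and fell in 14 of 1382 features, with a median of 0.23. The share that rose was below the 13.7% of all features. With median-ratio factors 130 rose and 27 fell. Their summed level went from 43715 ± 433 to 57303 ± 2668 RPM (SD, n = 3). Of the 1382 features 452 overlap another feature, as do 63 of the 184 called, so some reads are shared and can be counted more than once. Of 24 mitochondrial features 10 rose and none fell. *mt-Co1* had 174, 174 and 173 RPM against 487, 443 and 427 RPM (1.27 ± 0.15), *mt-Nd5* was at 1.104, *mt-Nd2* at 1.03, *mt-Nd1* at 0.84 and the ribosomal RNA *mt-Rnr2* at 0.27. Singled out after their values were seen, *Rab27a*, which encodes a GTPase of secretory vesicle docking, had 2433, 2789 and 2647 RPM against 6911, 6626 and 6279.5 RPM (1.23 ± 0.11, adjusted p = 1.70e-11), and *Elovl6*, a fatty acid elongase gene, had 61.9, 55.7 and 52.7 RPM against 183, 179 and 152.1 RPM (1.47 ± 0.15). *Tet1*, which encodes an enzyme that oxidises 5-methylcytosine, rose, with 30.5, 35.9 and 24.4 RPM against 57.3, 62.0 and 42.6 RPM (0.71 ± 0.18, adjusted p = 0.00271), the member of the 7 tested DNA methylation genes that passed, and *Dnmt3l* was at 0.50 (adjusted p = 0.079). Of 6 small RNA machinery genes tested, *Eif2c1*, which encodes AGO1, was at 0.95 and *Dgcr8*, the partner of DROSHA, at −0.80, and both passed. Of all features tested 23% passed, so the counts in these short gene lists say little about either list. The *Dgcr8* value turned to 0.118 with the R1-suffixed libraries, and without control library 1 its adjusted p was 0.0614.

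Day 6 against day 3 effects of Dnmt1 KO were compared by testing their difference, each day having its own 3 control libraries. The difference, day 6 minus day 3, passed in 200 features (7.75% of those tested), 62% of them with a higher and 76 with a lower effect on day 6, and 86 of them were miRNA features. The share with a higher effect on day 6 was 79.6% with library totals and 40.6% with median-ratio factors. The median of this difference over all features was 0.14. Of 46 Dlk1-Dio3 miRNAs 44 passed, the median fold change going from 0.70 on day 3 to 3.18 on day 6. *Mir758* differed by 5.17, *Mir323* by 4.24, *Mir381* by 3.75, *Mir341* by 3.15 and *Mir541* by 3.01. None of the 9 X-linked miRNAs passed, with medians of 2.87 and 3.40, which does not show that their effects were equal. Effects that were more negative on day 6 included those of *Mir302a* (difference −1.44), *Mir302b* (−1.41), *Mir302d* (−1.41), *Mir20b* (−0.92) and *Mir200b* (−0.80). The miR-200 family had been on the other side of 0 on day 3, where *Mir200b* was at 0.43, and the difference passed in 4 of 5 members. None of the 11 fibroblast markers passed, with medians of 0.61 on day 3 and 0.49 on day 6.

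Day 6 against day 9 effects differed in few features. The difference passed in 13 features (0.503%), 11 with a higher and 2 with a lower effect on day 9, none of them in the Dlk1-Dio3, X-linked or miR-302 lists, and 187 had an unadjusted p under 0.05. The count was 2 without control library 2, and with library totals 1 feature had a higher and 6 had a lower effect on day 9. *AC154660.1*, a miRNA feature in *Dleu2* that shares 20 bases with another miRNA feature, was at −0.85 on day 6 and 0.41 on day 9 (difference 1.27, adjusted p = 0.00132). *mt-Rnr1* (0.66), *Malat1* (0.72), *AL844840.2* (0.78) and *Zc3h7a* (0.87) also had a higher effect on day 9. *Itga6*, which encodes an integrin, was at 1.17 on day 6 and 0.33 on day 9, and *Sox2ot*, the RNA that overlaps *Sox2*, was at 0.85 and −0.34 (difference −1.19, adjusted p = 0.0339). Of the 595 features called on day 6, 340 were also among the 475 called on day 9, and 338 of them had the same direction. Of the 161 called on day 3, 111 were called on day 6, 107 in the same direction.

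**Figure D5:**
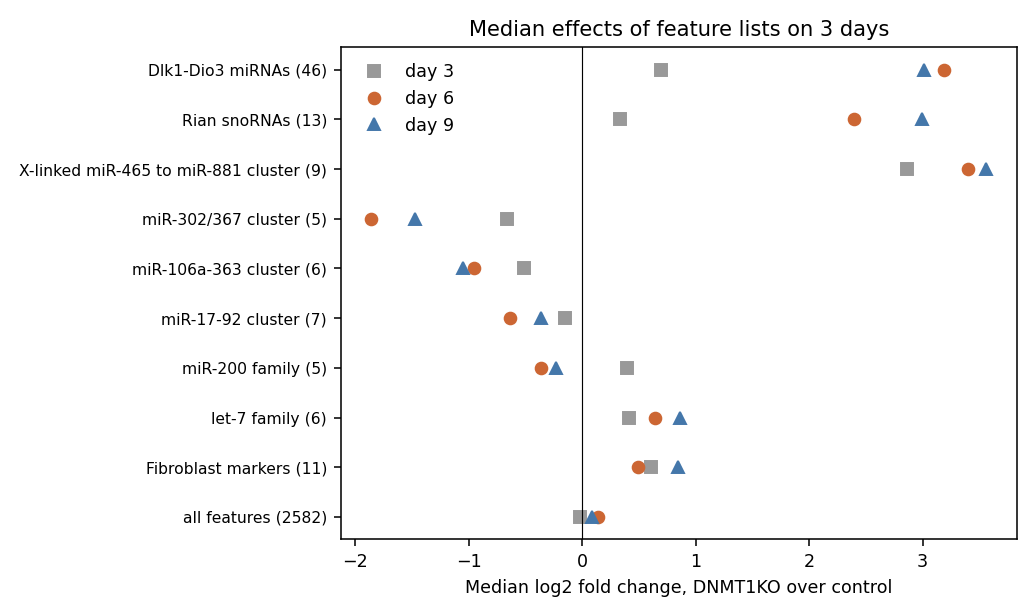
Median log2 fold change of 9 lists and of all features on days 3, 6 and 9, each day from its own 3 Dnmt1 KO and 3 control libraries; the number of tested features is in brackets. The Dlk1-Dio3 median is 0.70 on day 3 and 3.18 on day 6, the X-linked median is already 2.87 on day 3, and the miR-200 median changes side.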

How the data were processed

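Small RNA libraries were made with an Illumina small RNA kit. Per the labels and the study's methods, the authors trimmed reads with Trim Galore 0.3.5, kept short reads, mapped them to NCBIM37 with Bowtie2 2.2.9 and counted overlaps in SeqMonk. The deposited values are RPKM, scaled to feature length in kb and to library size by the authors, 1 table of 32101 features by 83 libraries, all of whose value columns were mapped to samples. RPM was RPKM times feature length in kb, and low values were whole reads, which gave each library's depth. All 32101 features matched GENCODE M1 by position, the source of the classes. Overlapping features share reads, so class shares can sum to over 100%.

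Features with at least 10 RPM in 3 of the 36 time-course libraries without the R1 suffix were scaled by TMM (trims of 30% and 5%), taken as log2(RPM + 1), which understates changes of low features, and fitted with limma 3.58.1 (R 4.3.3), 1 mean per day and genotype. P-values were adjusted by Benjamini-Hochberg over 2582 features. The fixed design named this log-scale fit, since RPKM are not counts. Class shares were compared by exact permutation (scipy 1.17.1). Replicates differed beyond sampling noise (chi-square per degree of freedom 10.6 to 22.0 over miRNA features).

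Groups came from titles. Named features are the 12 per direction with the smallest adjusted p whose groups did not overlap (1 per locus, a miRNA before its host), list members, *Dnmt1* and host genes, the 10 most abundant miRNAs, and 5 per direction of each difference between days. Members and lists were chosen with earlier results of these data known. On simulated data for the day 6 comparison (2582 features), 89.4% of log2 changes of 2, 44.8% of 1 and 10.4% of 0.5 were called, and 0.042% of unchanged features. In it all features had the same relative spread, 2382 were unchanged, changes were split nearly evenly by direction and days did not differ. The real data differ from this, so its rates need not hold for them. Mature sequences are from RefSeq (GRCm38.p6), found by exact match within the NCBIM37 features. Alternatives covered scaling, pseudocount, filter, samples fitted, voom weights on recovered reads, the replicate block and each replicate left out.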

Additional observations from a re-analysis of the deposited data

Results flagged for a closer look

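The Dnmt1 KO effect differed between days 3 and 6 in 200 features and between days 6 and 9 in 13 features, by the test of the difference itself. Between days 3 and 6 the differences with the smallest p were 3.15 for *Mir341*, 3.01 for *Mir541*, 3.75 for *Mir381*, 4.24 for *Mir323* and 5.17 for *Mir758*, all of the Dlk1-Dio3 domain, and −1.41 for *Mir302b*, −0.92 for *Mir20b*, −1.44 for *Mir302a*, −1.41 for *Mir302d* and −0.80 for *Mir200b* (log2). Between days 6 and 9 they were 1.27 for *AC154660.1*, 0.66 for *mt-Rnr1*, 0.78 for *AL844840.2*, 0.72 for *Malat1*, 0.87 for *Zc3h7a*, −1.19 for *Sox2ot* and −0.84 for *Itga6*.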

How the results depend on the processing

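Of 129 named features, 88 kept their direction and their side of the threshold under every alternative run. Day 6 features called went from 595 to 392 with at least 10 RPM required in all 6 libraries and to 274 with only miRNAs and features overlapping no other, both of which test fewer features. Other alternatives gave 418 to 836, the highest with the R1-suffixed libraries. Day 6 against day 3 effects went from 200 to 117 with no filter, 311 with days 1 to 11 only and 315 with voom weights. Day 6 against day 9 effects went from 13 to 7 with library totals, 21 with a pseudocount of 5 RPM, 1 with no filter, 40 with days 1 to 11 only, 65 with voom weights, 8 with miRNAs and features overlapping no other, and 2 to 14 with a day 6 library left out (2 without control library 2). Library totals moved the median of all features in these comparisons to 0.25 and −0.22, and median-ratio factors to 0.02 and 0.04. With a replicate block the calls were 594, 202 and 19. Same-numbered control and Dnmt1 KO libraries correlated in their deviations at 0.0085, −0.0613 and −0.0152, so the numbers were not taken as pairs. Without Dlk1-Dio3 features there were 539 calls, 252 higher and 287 lower; this alternative and that with miRNAs only were chosen after seeing the data.

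Mir295 day 6 log2 fold change turned to −0.0338 with miRNAs and features overlapping no other and to −0.0267 with miRNAs only, and ran from −0.00238 to 0.179 with a library left out. Mir292 day 6 log2 fold change turned to −0.0699 and −0.0627 and ran from −0.0331 to 0.112. CT010508.1 day 6 log2 fold change turned to −0.0215 with median-ratio factors and to −0.0943 and −0.0872 under those settings, and ran from −0.0889 to 0.111. None of these values passed the test. Dgcr8 day 6 log2 fold change turned to 0.118 with the R1-suffixed libraries. Day 6 feature class shares: misc_RNA ran from −0.00826 to 0.0855 percentage points with a library left out. The causes were not tested. Depth limits features near 3 reads, 0.915 to 1.70 RPM here.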

Other observations

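Outside the fixed lists, and singled out after their values were seen, several miRNAs of neighbouring loci changed on day 6. *Mir212* (log2 fold change 1.41) had 15.6, 11.97 and 9.07 RPM against 33.3, 38.6 and 35.5 RPM, and *Mir132* beside it on chromosome 11 was at 1.12. The X-linked neighbours *Mir221* (0.85) and *Mir222* (0.97) rose. *Mir181a-2* in *Nr6a1* had 13.7, 8.25 and 9.07 RPM against 43.3, 58.8 and 45.01 RPM (2.06) and shares 20 bases with another miRNA feature. On the X chromosome *Mir351* rose (0.82), while *Mir450b* (−0.89) and *Mir542* (−0.47) fell. *Mir101a* (−0.86) and *Mir101b* (−0.58), each sharing 20 bases with another miRNA feature, fell, as did *Mir653* in *Calcr* (−1.56). *Mir874* in *Klhl3* had 13.1, 15.3 and 19.3 RPM against 4.9996, 2.53 and 3.75 RPM (−1.94).

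The 6 day 6 libraries whose titles end in R1 were set aside, since their genotype tags contradict their titles. Whether they are samples separate from the 6 used here is not known, so their values are not independent support. Of their recovered read numbers 95.8% to 96.6% were even, against 42.1% to 44.8% in the 6 libraries. By title, their Dlk1-Dio3 miRNA sums were 4066, 3946 and 3569 RPM for control and 42015, 40050 and 37281 RPM for DNMT1KO, and their miR-302 cluster sums were 561, 433 and 571 RPM for control and 150.6 to 160.2 RPM for DNMT1KO. Deviations from the group mean correlated at 0.058 to 0.176 across 2582 features between a library and the R1 library of the same title and number, higher than with either other number of its group.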
